A study of Mus musculus with 6 samples.

Results

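The heat shock proteins and their DnaJ cochaperones were described in mouse bone marrow-derived macrophages. The members were the protein-coding genes of the deposited table whose symbols begin with Hspa, Hspb, Hspd, Hspe, Hsph or Hsp90, or with Dnaja, Dnajb or Dnajc, each followed by a number. The rule took 66 of 24752 genes, namely 13 Hspa genes, 3 Hsp90 genes, 6 small heat shock proteins (Hspb), 2 chaperonin genes (Hspd1 and Hspe1), Hsph1, and 4 Dnaja, 12 Dnajb and 25 Dnajc genes. RNA of 6 libraries was sequenced, 2 in each of 3 groups, with the replicates called B and C in the labels (n = 2 a group, values given in the order B, C). The macrophages had been grown for 7 days from marrow of mice 8 to 10 weeks old, in medium with M-CSF, a growth factor of macrophages. Lentiviral vectors, either a control or one overexpressing Glul (glutamine synthetase), were applied for 36 h, and LPS, a bacterial lipopolysaccharide sensed by Toll-like receptor 4, then followed at 100 ng/ml for 3 h. The groups were control, LPS, and cells labelled as overexpressing Glul with LPS (called Glul_LPS). Whether control and LPS libraries had received the control vector, which promoter drove Glul, and the strain of the mice are not stated in the labels. No label ties replicates B and C to separate animals or cultures, so a p-value reflects library-to-library spread, perhaps only technical.

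HSP70 proteins bind and release unfolded protein stretches in a cycle driven by ATP. DnaJ proteins bring clients to HSP70 and trigger ATP hydrolysis through their J domain, and HSP110 proteins act as nucleotide exchange factors that reopen it. Clients such as kinases and receptors can pass on to HSP90, and separate HSP70, HSP90 and DnaJ members serve the endoplasmic reticulum (ER) and the mitochondria. The transcription factor HSF1 drives the inducible members from heat shock elements, repeats of the unit GAA in alternating orientation, and ER members are driven from ER stress elements when unfolded protein accumulates there.

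Promoter windows, 250 bases before to 50 bases after a transcript start (RefSeq, GRCm38.p6), were found for 55 of 66 members. Genes can have several starts, which gave these members 72 windows, and a gene was counted as holding a motif when any of its windows did. The windows below are those of the members the results turn on: the 2 with the largest rises (Dnaja2 and Dnaja1), Dnajb6 and the stress-inducible Hspa1b, which also rose after LPS, Hsph1 and Hspe1, which fell as deposited and hold at least 3 alternating heat shock units, Dnajc28, which had the largest fall, and 3 ER genes. Capitals mark heat shock motifs (GAANNTTC or TTCNNGAA, each its own reverse complement, so that both strands were searched) in the first 7, and CCAAT with CCACG 9 bases apart on either strand, the ER stress element, in the last 3.
Dnaja2, chr8:85555312-85555611, minus strand: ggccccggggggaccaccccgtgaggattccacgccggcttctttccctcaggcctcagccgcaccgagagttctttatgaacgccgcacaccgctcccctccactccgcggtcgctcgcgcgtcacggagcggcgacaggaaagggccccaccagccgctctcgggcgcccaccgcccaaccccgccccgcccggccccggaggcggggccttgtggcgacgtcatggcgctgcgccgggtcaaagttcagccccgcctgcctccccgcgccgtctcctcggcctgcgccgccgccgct
Dnaja1, chr4:40722218-40722517, plus strand: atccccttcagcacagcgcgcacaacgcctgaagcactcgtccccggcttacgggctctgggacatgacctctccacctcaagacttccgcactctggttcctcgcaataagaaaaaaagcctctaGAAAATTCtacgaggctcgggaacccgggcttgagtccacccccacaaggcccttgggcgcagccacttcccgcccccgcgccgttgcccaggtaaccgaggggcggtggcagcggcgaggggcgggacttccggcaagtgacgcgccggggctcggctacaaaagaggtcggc
Dnajb6, chr5:29735648-29735947, plus strand: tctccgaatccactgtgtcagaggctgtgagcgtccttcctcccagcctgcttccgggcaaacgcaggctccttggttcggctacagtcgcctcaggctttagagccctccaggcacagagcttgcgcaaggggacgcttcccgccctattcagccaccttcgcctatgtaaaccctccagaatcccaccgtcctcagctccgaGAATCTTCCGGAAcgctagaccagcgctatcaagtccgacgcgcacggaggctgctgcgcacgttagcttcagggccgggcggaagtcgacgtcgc
Hspa1b, chr17:34959189-34959488, minus strand: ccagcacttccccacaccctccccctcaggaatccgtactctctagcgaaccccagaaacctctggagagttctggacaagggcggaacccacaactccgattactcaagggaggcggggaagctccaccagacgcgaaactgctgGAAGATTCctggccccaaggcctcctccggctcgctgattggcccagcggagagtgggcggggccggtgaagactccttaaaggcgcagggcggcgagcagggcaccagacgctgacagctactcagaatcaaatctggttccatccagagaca
Hsph1, chr5:149636266-149636565, minus strand: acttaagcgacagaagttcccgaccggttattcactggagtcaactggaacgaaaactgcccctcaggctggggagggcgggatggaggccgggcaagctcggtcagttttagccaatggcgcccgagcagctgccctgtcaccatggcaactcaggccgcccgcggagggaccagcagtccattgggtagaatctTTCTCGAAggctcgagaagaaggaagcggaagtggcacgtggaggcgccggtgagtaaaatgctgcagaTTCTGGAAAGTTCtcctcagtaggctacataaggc
Hspe1, chr1:55087898-55088197, plus strand: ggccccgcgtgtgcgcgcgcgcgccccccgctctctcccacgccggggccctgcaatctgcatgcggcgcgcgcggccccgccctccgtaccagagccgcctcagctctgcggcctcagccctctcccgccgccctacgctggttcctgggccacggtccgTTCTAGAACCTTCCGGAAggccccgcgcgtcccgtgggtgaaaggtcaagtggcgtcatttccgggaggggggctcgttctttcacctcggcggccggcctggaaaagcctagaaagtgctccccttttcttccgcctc
Dnajc28, chr16:91618950-91619249, minus strand: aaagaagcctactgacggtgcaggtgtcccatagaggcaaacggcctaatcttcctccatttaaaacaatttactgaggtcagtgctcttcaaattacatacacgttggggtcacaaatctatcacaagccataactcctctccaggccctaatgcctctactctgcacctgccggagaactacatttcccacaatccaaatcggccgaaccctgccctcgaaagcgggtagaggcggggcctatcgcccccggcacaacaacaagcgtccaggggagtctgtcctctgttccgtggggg
Hspa5, chr2:34771840-34772139, plus strand: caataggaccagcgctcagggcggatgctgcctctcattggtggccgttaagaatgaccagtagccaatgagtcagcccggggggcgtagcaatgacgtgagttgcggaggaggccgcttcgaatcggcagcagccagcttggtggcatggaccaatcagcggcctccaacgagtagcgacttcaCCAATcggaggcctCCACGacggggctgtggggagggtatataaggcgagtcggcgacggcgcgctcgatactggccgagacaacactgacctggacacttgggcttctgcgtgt
Hsp90b1, chr10:86705395-86705694, minus strand: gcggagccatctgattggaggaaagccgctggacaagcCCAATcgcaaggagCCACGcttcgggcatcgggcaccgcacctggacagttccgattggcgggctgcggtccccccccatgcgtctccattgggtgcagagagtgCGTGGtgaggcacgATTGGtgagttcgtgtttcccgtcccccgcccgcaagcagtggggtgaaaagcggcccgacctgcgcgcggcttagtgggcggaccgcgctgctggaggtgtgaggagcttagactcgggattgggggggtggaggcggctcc
Dnajc3, chr14:118937682-118937981, plus strand: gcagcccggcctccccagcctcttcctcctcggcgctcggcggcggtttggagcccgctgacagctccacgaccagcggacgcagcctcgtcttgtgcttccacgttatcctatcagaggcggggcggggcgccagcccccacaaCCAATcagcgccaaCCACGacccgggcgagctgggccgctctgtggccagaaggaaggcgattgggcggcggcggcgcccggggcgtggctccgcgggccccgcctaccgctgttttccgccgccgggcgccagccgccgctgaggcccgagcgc
Dnaja2 and Dnajc28 have no heat shock motif in these windows. The window of Dnaja1 is 1 of 3, and the other two hold none. In Dnajb6, Hsph1 and Hspe1 overlapping motifs form at least 3 alternating units. Hsp90b1 has an ER stress element on each strand. A match is a description of the letters and not a binding site.

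Either heat shock motif was found in the windows of 14 of 55 members (25.5%) and of 17.0% of 27025 genes with a window. The motif GAANNTTC alone was in 12 members (21.8%, against 9.04% of all genes), and TTCNNGAA, which can overlap it, was in 6 (10.9%, against 9.60%). At least 3 alternating units were found in 4 members (7.27%), namely Dnajb6, Hspd1, Hspe1 and Hsph1, and in 0.662% of all genes. The ER stress element was in Hspa5, Hsp90b1 and Dnajc3 (5.45% of members) and in 0.137% of all genes. Hspd1 and Hspe1 start from a shared region on opposite strands, and their windows have 285 bases in common. The windows of Hspa1a and Hspa1b are identical at 296 of 300 positions.

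Depth was 15649764 to 18691669 fragments per library, recovered from the table itself, and replicates correlated across genes at 0.9935 to 0.9943. Glul was at 30.6 and 33.4 FPKM in LPS and at 37.2 and 37.7 FPKM in Glul_LPS (log2 change 0.22, adjusted p 0.122), so its RNA did not show the labelled overexpression at the threshold, and every value given for Glul_LPS is that of libraries labelled so. It was at 140.2 and 140.3 FPKM in control. All 7 macrophage markers were present, with a summed level of 15066 to 21109 FPKM, most of it Lyz2, that was highest in the control libraries. Csf1r, Cd68, Itgam and Lyz2 were each higher in both control libraries than in the other 4. Fcgr1 was lower in control (107 and 107 FPKM, beside 176 to 189 elsewhere), and for Adgre1 and Mertk control overlapped the other libraries. Neutrophil markers summed to 52.8 to 54.1 FPKM in control, 60.8 to 65.3 in LPS and 66.0 to 70.5 in Glul_LPS, most of it Csf3r, with Ly6g, Mpo and Elane at or near 0. T cell markers summed to 7.47 to 14.6 FPKM, nearly all Cd4, highest in control, with Cd3e and Cd3d near 0. Dendritic cell markers summed to 0.228 and 0.238 FPKM in control and to 0.969 to 1.42 in the other 4 libraries. Stromal markers summed to 3.66 to 8.59 FPKM. Among them Pdgfrb was at 0.811 and 0.685 FPKM in control and 3.02 to 5.66 in the other 4 libraries, while Col1a1, Col1a2 and Dcn were lower in both LPS libraries than in either control library. Markers of B cells, mast cells and erythroid cells summed to no more than 0.528 each. Their part in the results was not tested. In RNA from whole cultures, fewer cells of a type and less RNA per cell cannot be told apart.

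A few members held most of the summed FPKM of the members in these macrophages. Chaperone genes outside the rule were not counted in that sum, and Calr, an ER folding gene, had a mean of 318 FPKM. FPKM counts fragments per kilobase of transcript, scaled to the size of the library, so that levels can be set side by side between genes. Hspa8, the constitutive cytosolic HSP70 (chr9:40800984-40810087), had the highest level of all members, with a mean of 502 FPKM over the 6 libraries. Hsp90ab1, the constitutive cytosolic HSP90, followed at 245 and Hspa5, the HSP70 of the ER also called BiP, at 237. Hsp90ab1 was above Hspa5 in control (means 305 and 178 FPKM) and below it in LPS (209 and 267) and Glul_LPS (220 and 266). Hspa8, Hsp90ab1 and Hspa5 together held 55.3% to 60.8% of the summed FPKM of all members in each library. Dnaja2, a class A cochaperone of cytosolic HSP70, was the DnaJ gene with the highest mean over the 6 libraries, at 79.2 FPKM. Dnajc15, of the mitochondrial import machinery, followed at 40.8 and Dnajb11, an ER cochaperone of BiP, at 30.2. The order differed between groups. In control, Dnajc15 (mean 50.5 FPKM) was above Dnaja2 (43.7). In LPS, Dnaja1 (33.9) and Dnajb6 (28.0) were above Dnajb11 (27.8). Summed over all members, the level was 1758 and 1699.9 FPKM in control, 1655 and 1639.9 in LPS, and 1627 and 1644 in Glul_LPS. The summed level was thus higher in both control libraries than in the other 4, by a small margin.

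**Figure D1:**
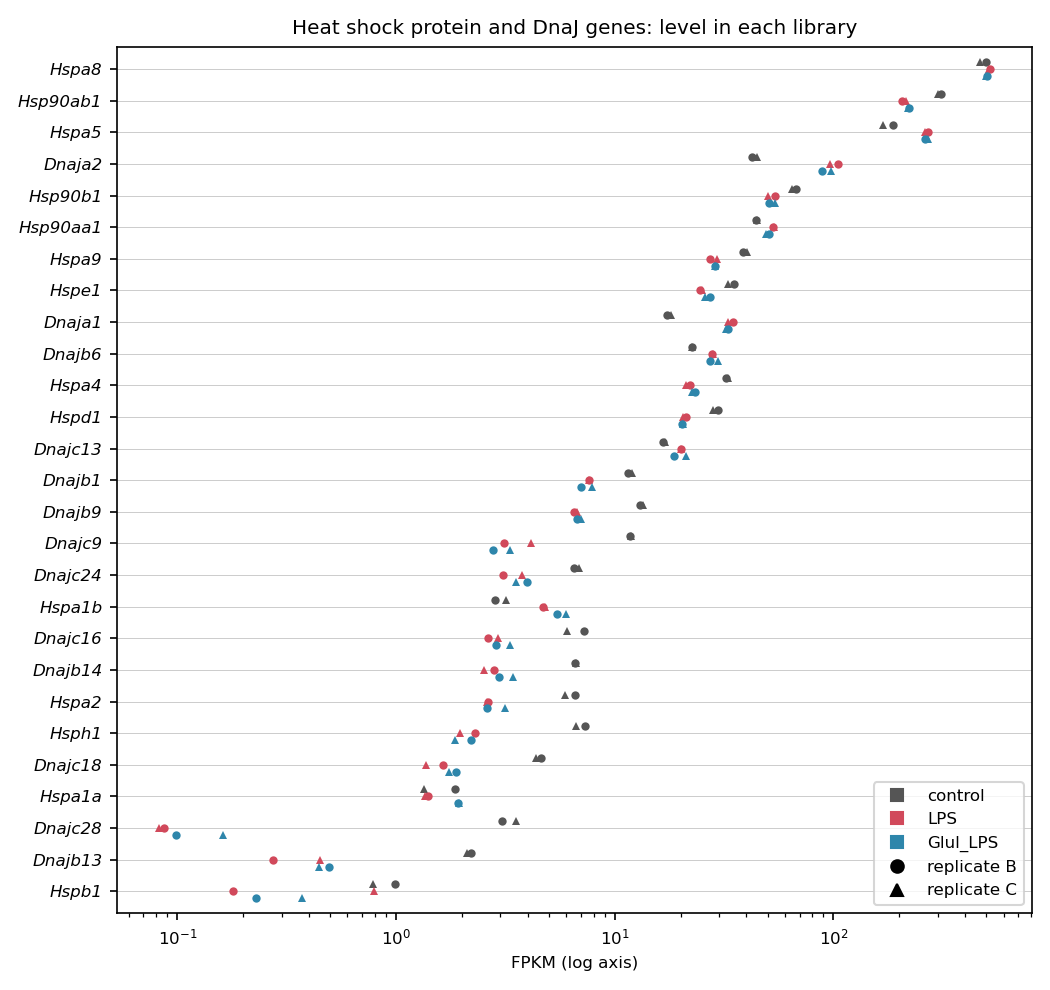
FPKM (log axis) of 27 named members in each of the 6 libraries, coloured by group, with circles for replicate B and triangles for replicate C. The LPS and Glul_LPS points of most genes lie together, apart from control: Dnaja2 and Dnaja1 lie to the right of their control points and Dnajc28, Hsph1 and Dnajc9 to the left.

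Of the 66 members, 56 had at least 1 FPKM in at least 2 libraries and were tested. The other 10 (Dnaja4, Dnajb3, Dnajb7, Dnajc6, Hspa12a, Hspa12b, Hspa1l, Hspb1, Hspb7 and Hspb8) reached no more than 0.986 FPKM in any library. Hspb1, the small heat shock protein HSP27, gave that highest value. It was at 0.986 and 0.783 FPKM in control, 0.181 and 0.794 in LPS, and 0.228 and 0.372 in Glul_LPS. The LPS libraries overlapped both other groups, and control lay above Glul_LPS. Hspa1l, the third gene of the Hspa1 cluster, was at 0.173 and 0.117 FPKM in control and at 0.0251 or less elsewhere. Hspb8 was at 0.0549 and 0.0592 FPKM in control and listed at 0 in the other 4 libraries.

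The comparison of LPS with control addresses how these genes differed after 3 h of LPS. On the deposited scale, 7 of 56 tested members rose and 42 fell, and 7 did not pass the threshold of 0.05 on the adjusted p. That is 12.5% higher and 75% lower, beside 17.1% higher and 68% lower of all 10962 genes tested, so the members' split was near that of the whole table. The median log2 change of FPKM + 1 was -0.46 over the members and -0.50 over all genes tested. Because the whole table was shifted, each library was also centred on its median: relative to the median, 17 members (30.4%) were higher and 14 (25%) were lower, beside 34.6% and 32.2% of all genes. All 7 members that rose as deposited were also higher relative to the median, and 14 of the 42 that fell were also lower relative to it. Of the other 28 that fell, 23 passed in neither direction relative to the median and 5 were higher. Quantile normalization gave 12 members higher and 25 lower, beside 3044 and 4631 of all 10962 genes. A change relative to the median is given below wherever it turns a direction or ends a call.

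**Figure D2:**
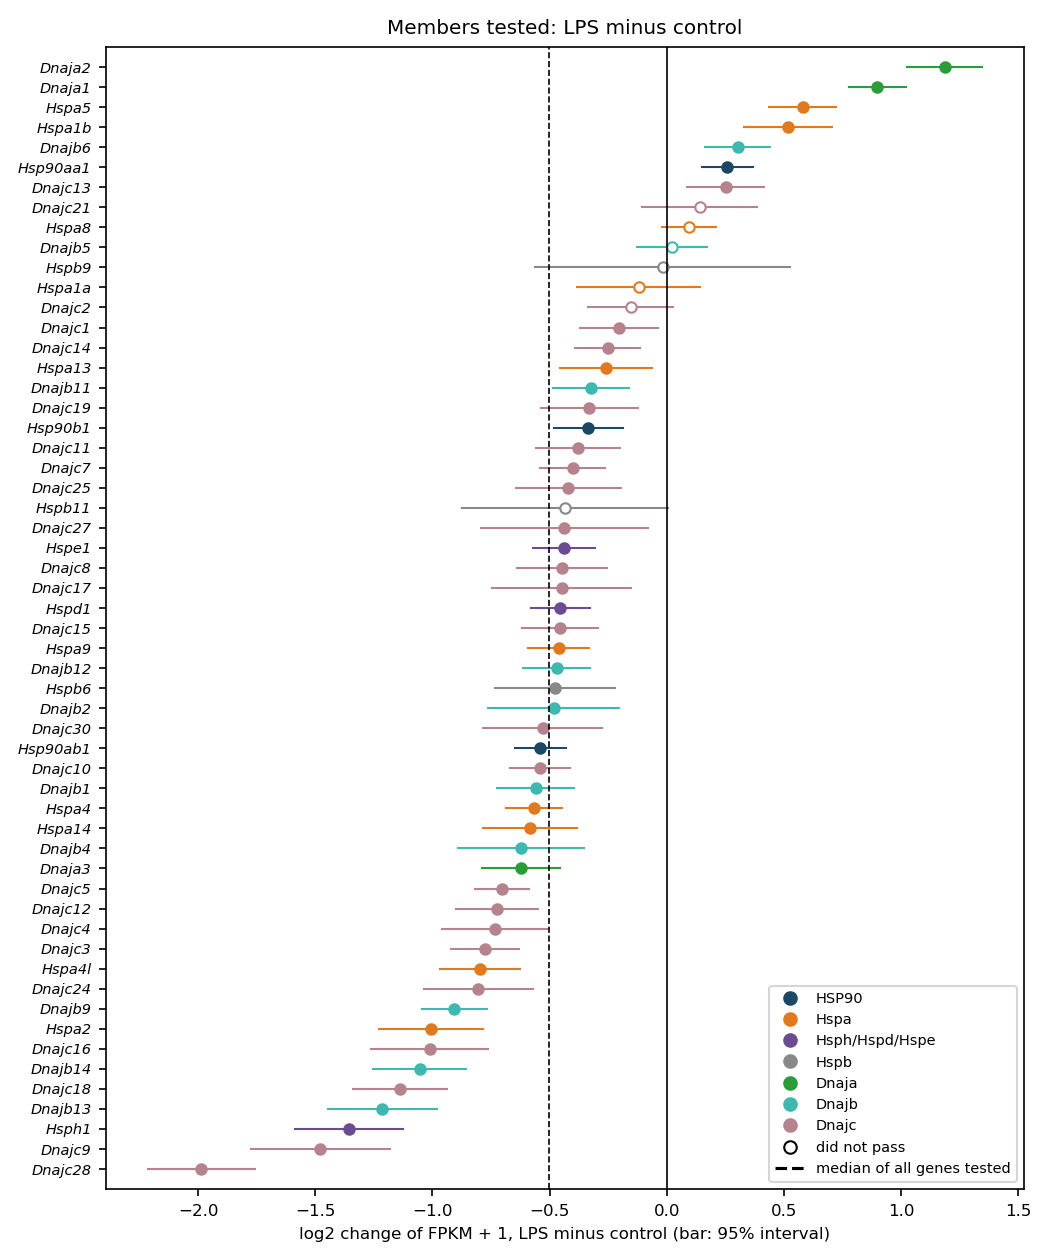
Log2 change of FPKM + 1, LPS minus control, for the 56 tested members, with 95% intervals, coloured by gene family. Filled points passed the threshold, open points did not, and the dashed line is the median of all genes tested (-0.50). Dnaja2 (1.19) and Dnajc28 (-1.99) are the ends of the range.

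The cytosolic class A DnaJ genes had the largest rises. Dnaja2 (chr8:85537633-85555344) was at 42.5 and 44.8 FPKM in control, 105 and 96.8 in LPS, and 89.1 and 97.1 in Glul_LPS. Both LPS libraries and both Glul_LPS libraries were well above the control level and no library of these groups overlapped control. The mean rose 2.31-fold in LPS and the log2 change was 1.19 (SE 0.07, adjusted p 1.1e-05). Dnaja1 (chr4:40722150-40737149), which works with the same HSP70 proteins, was at 17.4 and 18.02 FPKM in control, 34.7 and 33.1 in LPS, and 32.8 and 32.3 in Glul_LPS. Its log2 change was 0.90 (SE 0.05, adjusted p 1.14e-05), again with no overlap between control and the other groups. 10.8% of its exon bases overlap other genes, among them Smu1 on the opposite strand, and 20.6% of its 50-base stretches also occur in other genes, so part of its count may be theirs. Dnaja3, the mitochondrial member of the class, went the other way, at 7.25 and 7.98 FPKM in control, 4.68 and 4.499 in LPS, and 4.63 and 4.704 in Glul_LPS. It fell by 0.62 (SE 0.07, adjusted p 0.000184), a call that was lost relative to the median (-0.10, adjusted p 0.231). The remaining member, Dnaja4, was too low to test.

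Of 10 class B DnaJ genes tested, 1 rose, 8 fell and 1 did not pass, beside 17.1% higher and 68% lower of all genes tested. Relative to the median 3 were higher and 3 lower, beside 34.6% and 32.2% of all genes. Dnajb1, the heat-inducible HSP40 that works with HSC70 and HSP110 in taking aggregates apart, was at 11.5 and 11.96 FPKM in control, 7.62 and 7.67 in LPS, and 7.01 and 7.86 in Glul_LPS. It fell by 0.56 (SE 0.07, adjusted p 0.000301) as deposited, and relative to the median its change was -0.04 (adjusted p 0.626). Dnajb6, known for keeping aggregation-prone proteins soluble (chr5:29735688-29818134), was the class B gene that rose, at 22.5 and 22.5 FPKM in control, 27.97 and 28.01 in LPS, and 27.2 and 29.8 in Glul_LPS. Its rise was 0.30 (SE 0.06, adjusted p 0.00234), and 21% of its 50-base stretches occur in other genes. Dnajb13, known from sperm and cilia, was at 2.19 and 2.11 FPKM in control, 0.273 and 0.449 in LPS, and 0.495 and 0.444 in Glul_LPS, and it fell by 1.21 (SE 0.10, adjusted p 4.38e-05). Control libraries held 5.96 times the LPS level, at values near the lower end of what was tested. Ucp2, on the opposite strand, overlaps 11.2% of the exon bases of Dnajb13, and 9.2% of the 50-base stretches of Dnajb13 occur in Ucp2. Part of the count of Dnajb13 may thus be that of Ucp2. Dnajb14, an ER membrane cochaperone, was at 6.56 and 6.64 FPKM in control, 2.805 and 2.52 in LPS, and 2.96 and 3.42 in Glul_LPS and fell by 1.06 (SE 0.08, adjusted p 4.17e-05).

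Dnajc genes, which share little beyond the J domain, counted 1 rise and 21 falls among 24 tested, and 2 did not pass, with 5 higher and 8 lower relative to the median. The same shares of all genes tested (17.1% and 68%, and 34.6% and 32.2% relative to the median) stand beside these counts. Dnajc28 (chr16:91614257-91619026) had the largest fall of all members, from 3.06 and 3.55 FPKM in control to 0.0872 and 0.0821 in LPS. In Glul_LPS it was at 0.0990 and 0.161. The control mean was 39.1 times the LPS mean, and the log2 change of -1.99 (SE 0.09, adjusted p 5.99e-06) understates this because 1 was added before the log. By annotated length this was about 5 fragments in each LPS library, so the ratio has a wide counting error. Dnajc9, a cochaperone that also handles histones H3 and H4, was at 11.8 and 11.9 FPKM in control, 3.11 and 4.16 in LPS, and 2.77 and 3.33 in Glul_LPS. It fell by 1.48 (SE 0.12, adjusted p 5.41e-05) and stayed below control in all 4 libraries given LPS. Dnajc18 was at 4.63 and 4.39 FPKM in control, 1.63 and 1.37 in LPS, and 1.88 and 1.76 in Glul_LPS and fell by 1.14 (SE 0.08, adjusted p 3.17e-05). Dnajc16 was at 7.26 and 6.05 FPKM in control, 2.64 and 2.93 in LPS, and 2.86 and 3.31 in Glul_LPS and fell by 1.01 (SE 0.10, adjusted p 0.000135). Dnajc24, which takes part in making diphthamide on a translation elongation factor, was at 6.53 and 6.87 FPKM in control, 3.08 and 3.76 in LPS, and 3.99 and 3.55 in Glul_LPS, and it fell by 0.80 (SE 0.10, adjusted p 0.000271). All 5 also fell relative to the median. Dnajc13, an endosomal protein also called RME-8, was the Dnajc gene that rose, at 16.6 and 16.9 FPKM in control, 20.1 and 20.2 in LPS, and 18.7 and 21.2 in Glul_LPS. Its rise of 0.25 (SE 0.07, adjusted p 0.0115) was lost without control library B (0.24, adjusted p 0.0592).

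Of 10 Hspa genes tested, 2 rose (Hspa1b and Hspa5), 6 fell and 2 did not pass, with 5 higher and 2 lower relative to the median. Of all genes tested 17.1% were higher and 68% lower, and 34.6% and 32.2% relative to the median. Hspa1b, an inducible HSP70 (chr17:34956436-34959238), was at 2.82 and 3.19 FPKM in control, 4.697 and 4.78 in LPS, and 5.47 and 6.02 in Glul_LPS. It rose by 0.52 (SE 0.08, adjusted p 0.000801), with both control libraries below all others. Hspa1a, its near-identical neighbour (chr17:34969190-34972156), was at 1.86 and 1.34 FPKM in control, 1.402 and 1.36 in LPS, and 1.92 and 1.94 in Glul_LPS. Control library C lay below both LPS libraries and the other above, so the groups overlapped. Its change of -0.12 (SE 0.11, adjusted p 0.331) did not pass, while relative to the median it was higher by 0.40 (adjusted p 0.0166). Without control B it was 0.02, and without control C it was -0.26 and passed (adjusted p 0.0473). Of the 50-base stretches of Hspa1a 66.3% occur in other genes, and of those of Hspa1b 62.3%, so how fragments were split between them is uncertain. Hspa8 was at 499 and 469 FPKM in control, 522 and 512 in LPS, and 506 and 500.4 in Glul_LPS. It did not pass (0.10, SE 0.05, adjusted p 0.105), was higher relative to the median by 0.61 (adjusted p 5.1e-05), and under quantile normalization its change was -0.12. Sequences shared with other genes, 39.4% of its stretches, make its level uncertain too. Hspa2, known from germ cells, was at 6.62 and 5.93 FPKM in control, 2.63 and 2.61 in LPS, and 2.6 and 3.14 in Glul_LPS and fell by 1.01 (SE 0.09, adjusted p 8.29e-05), also relative to the median.

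Hsph1, Hspa4 and Hspa4l, the HSP110 exchange factors of HSP70, all fell as deposited, as did 68% of all genes tested. Hsph1 (chr5:149614287-149636376), the gene for HSP105, was at 7.297 and 6.69 FPKM in control, 2.29 and 1.96 in LPS, and 2.21 and 1.86 in Glul_LPS. Control libraries held 3.29 times the LPS level, and the fall of 1.36 (SE 0.09, adjusted p 2.7e-05) also held relative to the median (-0.84, adjusted p 0.000334). Hspa4, of the same family in spite of its name, was at 32.4 and 32.8 FPKM in control, 22.1 and 21.3 in LPS, and 23.3 and 22.6 in Glul_LPS. It fell by 0.57 (SE 0.05, adjusted p 6.41e-05) as deposited, but its change relative to the median was -0.05 (adjusted p 0.422). Hspa4l, the third of them, fell by 0.80 (SE 0.07, adjusted p 7.22e-05) and was also lower relative to the median.

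The cytosolic HSP90 genes moved in opposite directions as deposited. Hsp90aa1, the inducible form (chr12:110690605-110702728), was at 44.1 and 44.5 FPKM in control, 52.8 and 53.6 in LPS, and 50.95 and 49.1 in Glul_LPS. It rose by 0.26 (SE 0.05, adjusted p 0.00165), and all 4 libraries given LPS were above both control libraries. Other annotated genes, pseudogenes among them, share 47.5% of its 50-base stretches, so its level is uncertain. Hsp90ab1 (chr17:45567775-45573271) was at 309 and 300.5 FPKM in control, 205 and 214 in LPS, and 221 and 218 in Glul_LPS. It fell by 0.54 (SE 0.04, adjusted p 5.4e-05), and relative to the median its change was -0.02 (adjusted p 0.663). The ratio of Hsp90aa1 to Hsp90ab1 within a library, which no scaling between libraries can move, was 0.143 and 0.148 in control, 0.258 and 0.251 in LPS, and 0.230 and 0.225 in Glul_LPS. It was 1.75 times as high in LPS as in control. With 2 libraries against 2, the exact two-sided permutation p was 0.333, the smallest such groups can give, so no ratio between them can pass a threshold of 0.05.

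Genes of the ER did not move together. Hspa5, or BiP (chr2:34771970-34777547), was at 187 and 169 FPKM in control, 270.5 and 263 in LPS, and 262 and 270.1 in Glul_LPS. It rose by 0.58 (SE 0.06, adjusted p 0.000127), 1.496-fold in its mean, with no overlap. Hsp90b1, the ER HSP90 also called GRP94, which folds Toll-like receptors and integrins (chr10:86690209-86705509), was at 67.5 and 64.5 FPKM in control, 54.3 and 50.01 in LPS, and 50.9 and 54.04 in Glul_LPS. It fell by 0.33 (SE 0.06, adjusted p 0.00205) as deposited but was higher by 0.18 relative to the median (adjusted p 0.0434). The ratio of Hspa5 to Hsp90b1 was 2.77 and 2.63 in control, 4.98 and 5.26 in LPS and 5.16 and 4.998 in Glul_LPS, and the groups given LPS lay apart from control. Both promoters printed above hold an ER stress element, as does that of Dnajc3, a cochaperone of BiP also called p58IPK. Dnajc3 was at 27.9 and 26.2 FPKM in control, 15.8 and 14.9 in LPS, and 16.1 and 16.6 in Glul_LPS and fell by 0.78 (SE 0.06, adjusted p 3.81e-05), also relative to the median. Dnajb9, or ERdj4, a BiP cochaperone that represses the stress sensor IRE1, was at 13.1 and 13.4 FPKM in control, 6.48 and 6.74 in LPS, and 6.75 and 7.04 in Glul_LPS and fell by 0.91 (SE 0.06, adjusted p 1.79e-05), also relative to the median. Dnajb11, or ERdj3, was at 36.1 and 34.1 FPKM in control, 29.3 and 26.4 in LPS, and 26.9 and 28.2 in Glul_LPS. It fell by 0.32 (SE 0.07, adjusted p 0.00368) as deposited and was higher by 0.19 relative to the median (adjusted p 0.0482).

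Hspa9, Hspd1 and Hspe1, which fold proteins in the mitochondria, fell as deposited and lay close to the median of the table. Hspa9, the mitochondrial HSP70 also called mortalin, was at 38.8 and 40.1 FPKM in control, 27.4 and 29.4 in LPS, and 28.7 and 28.6 in Glul_LPS. Hspd1, the chaperonin HSP60, was at 29.6 and 28.04 FPKM in control, 21.1 and 20.4 in LPS, and 20.3 and 20.4 in Glul_LPS. Hspe1, its lid HSP10, was at 34.95 and 32.96 FPKM in control, 24.5 and 25.1 in LPS, and 27.4 and 26.01 in Glul_LPS. In each of the 3 genes both control libraries were above the other 4, and they fell by 0.46, 0.45 and 0.44 (adjusted p 0.000232, 0.000226 and 0.000345). Relative to the median the changes turned to 0.06, 0.06 and 0.08, and none passed (adjusted p 0.36, 0.331 and 0.22). The ratio of Hspe1 to Hspd1 was 1.18 and 1.18 in control, 1.16 and 1.23 in LPS, and 1.35 and 1.27 in Glul_LPS (LPS with control, exact two-sided permutation p 1.00). Other annotated genes share 42.1% of the stretches of Hspd1 and 22.8% of those of Hspe1.

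The remaining members serve other compartments and clients. In the mitochondria, Dnajc15 was at 49.04 and 51.99 FPKM in control, 34.6 and 38.6 in LPS, and 34.5 and 35.9 in Glul_LPS, and it fell by 0.46 (SE 0.07, adjusted p 0.000757). Dnajc19, of the same import motor, fell by 0.33, Dnajc11, of the inner membrane organizing system, by 0.38, and Dnajc30 by 0.53. None of the 4 passed relative to the median, where the first 3 turned to 0.06, 0.19 and 0.14 and that of Dnajc30 was -0.01. Bud23, on the opposite strand, overlaps 26.2% of the exon bases of Dnajc30, so part of that count may belong to Bud23. In the ER, the disulfide reductase Dnajc10, or ERdj5, was at 22.6 and 22.6 FPKM in control, 15.1 and 15.4 in LPS, and 15.6 and 16.6 in Glul_LPS and fell by 0.54 (SE 0.05, adjusted p 0.000108). Dnajb12, an ER membrane partner of Dnajb14, fell by 0.47 and Dnajc25 by 0.42. None of these 3 passed relative to the median, where Dnajb12 and Dnajc25 turned to 0.05 and 0.10. Hspa13, an HSP70 of microsomes, was at 7.92 and 8.66 FPKM in control, 6.36 and 7.18 in LPS, and 7.04 and 7.63 in Glul_LPS, and it fell by 0.26 (SE 0.08, adjusted p 0.0223) but was higher by 0.26 relative to the median (adjusted p 0.0272). Dnajc14, known for trafficking of a dopamine receptor, fell by 0.25 (SE 0.06, adjusted p 0.00569) and was likewise higher relative to the median (0.27, adjusted p 0.00598).

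Dnajc21, needed for making the large ribosomal subunit, was at 2.81 and 2.72 FPKM in control, 3.35 and 2.96 in LPS, and 3.04 and 2.42 in Glul_LPS. Its change of 0.14 (SE 0.10, adjusted p 0.227) did not pass as deposited and was 0.66 relative to the median, which did (adjusted p 0.00134). Dnajc2, a cochaperone on ribosomes, likewise did not pass as deposited (-0.15, SE 0.07, adjusted p 0.0951) and was higher by 0.36 relative to the median (adjusted p 0.00487). Hspa14, its HSP70 partner there, was at 5.96 and 6.87 FPKM in control, 3.93 and 3.93 in LPS, and 4.301 and 3.91 in Glul_LPS and fell by 0.58 (SE 0.08, adjusted p 0.000629), a call lost relative to the median (-0.07, adjusted p 0.503). Dnajb5 was at 4.04 and 4.004 FPKM in control, 4.13 and 4.06 in LPS, and 3.96 and 3.82 in Glul_LPS, with all 6 libraries in a narrow range. It did not pass (0.02, SE 0.06, adjusted p 0.758) and was higher by 0.54 relative to the median (adjusted p 0.000356).

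Dnajc5, the secretory vesicle cochaperone CSP alpha, was at 24.2 and 23.9 FPKM in control, 14.4 and 14.4 in LPS, and 13.05 and 12.9 in Glul_LPS. It fell by 0.70 (SE 0.05, adjusted p 2.45e-05), also relative to the median, with control apart from the other groups. Dnajc12, a cochaperone of aromatic amino acid hydroxylases, was at 5.62 and 5.56 FPKM in control, 3.14 and 2.85 in LPS, and 3.18 and 2.93 in Glul_LPS and fell by 0.72 (SE 0.07, adjusted p 0.000123), also relative to the median. Other falls were -0.73 for Dnajc4, -0.62 for Dnajb4, -0.48 for Dnajb2, -0.44 for Dnajc27, -0.40 for Dnajc7, which binds both HSP70 and HSP90, and -0.45 and -0.45 for Dnajc8 and Dnajc17, found in spliceosomes. None of these 7 passed relative to the median, where they lay between -0.22 (Dnajc4) and 0.12 (Dnajc7), above 0 in all but Dnajc4 and Dnajb4. Of the 3 small heat shock proteins tested, Hspb6 fell by 0.48 (SE 0.11, adjusted p 0.00495), which turned to 0.04 relative to the median. Hspb11, known from the transport machinery of cilia, changed by -0.43 (SE 0.18, adjusted p 0.0609) and Hspb9 by -0.02 (SE 0.22, adjusted p 0.946), and neither passed on either scale.

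The ratio of Dnaja1 to Dnajb1, cochaperones of the same cytosolic HSP70 proteins, was 1.51 and 1.51 in control, 4.56 and 4.32 in LPS, and 4.68 and 4.11 in Glul_LPS. That is 2.94 times as high in LPS as in control (exact two-sided permutation p 0.333). The ratio of Hspa8 to Hsph1 went from 68.4 and 70.2 to 228 and 262 in LPS, beside 229 and 268 in Glul_LPS. These pairs were chosen after their values were seen. The ratios of Hsp90aa1 to Hsp90ab1, Hspa5 to Hsp90b1 and Hspe1 to Hspd1 were not planned beforehand either. Ratios of Dnaja2 to Hspa8 and of Hspa8 to Hspa9 were also computed, and were 2.16 and 1.49 times as high in LPS as in control.

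**Figure D3:**
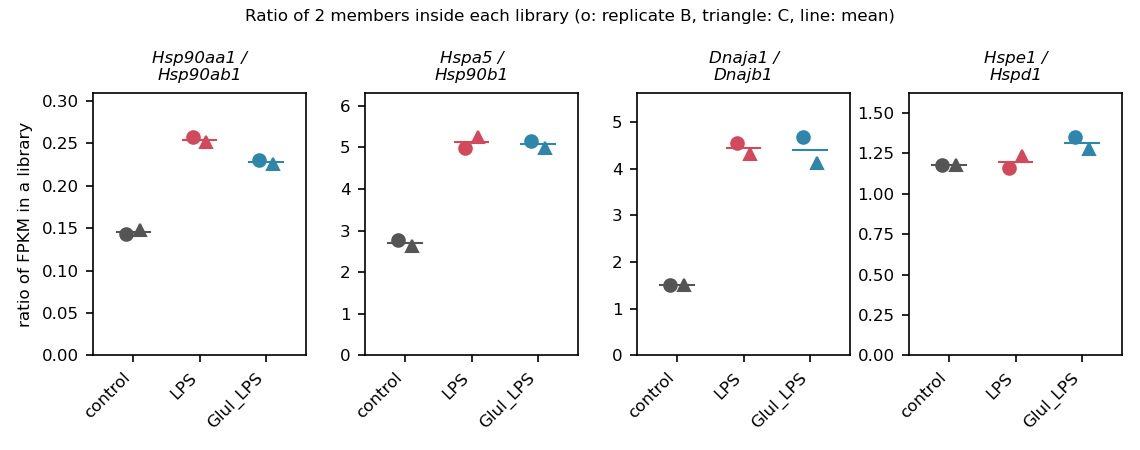
Ratio of the FPKM of 2 members within each library for 4 pairs, with axes from 0, circles for replicate B, triangles for C and a line at the group mean. Hsp90aa1 to Hsp90ab1, Hspa5 to Hsp90b1 and Dnaja1 to Dnajb1 are higher in LPS and Glul_LPS than in control, and Hspe1 to Hspd1 stays between 1.16 and 1.35.

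Promoter motifs were set beside the direction of change, and a link between them was not tested. A heat shock motif was in the window of 3 of 6 members that rose (Dnaja1, Dnajb6 and Hspa1b). It was in that of 7 of 34 that fell (20.6%), 1 of 5 that did not pass and 3 of 10 not tested. Of all 27025 genes with a window, 17.0% held a heat shock motif. The 4 members with at least 3 alternating units were Dnajb6, which rose, and Hsph1, Hspd1 and Hspe1, which fell as deposited (Hspd1 and Hspe1 turned to 0.06 and 0.08 relative to the median). Of the 3 members with an ER stress element, Hspa5 rose, Dnajc3 fell, and Hsp90b1 fell as deposited and was higher relative to the median. Hsp90aa1, Hsp90ab1 and Hspa8 are among the 11 members for which no window was used.

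Other chaperone and cochaperone genes, 76 in 5 lists, gave the context. The counts of each list stand beside 17.1% higher and 68% lower of all genes tested, and 34.6% and 32.2% relative to the median. Of 15 tested genes among HSF factors and HSP70 regulators, 1 rose and 13 fell (5 higher and 3 lower relative to the median; median log2 change -0.44). Hsf1 itself was at 13.97 and 13.01 FPKM in control, 9.29 and 8.69 in LPS, and 9.696 and 9.02 in Glul_LPS and fell by 0.54 (SE 0.07, adjusted p 0.000365), a call lost relative to the median (-0.02, adjusted p 0.837). Bag3, an HSP70 exchange factor and a known HSF1 target, was at 23.9 and 22.9 FPKM in control, 12.3 and 11.9 in LPS, and 14.1 and 12.02 in Glul_LPS and fell by 0.90 (SE 0.08, adjusted p 7.36e-05), also relative to the median. Stub1, the ubiquitin ligase CHIP, fell by 0.84, Bag5 by 0.82 and Bag4 by 0.72, the last not relative to the median. Bag1 was the one that rose, by 0.20 (SE 0.05, adjusted p 0.00813).

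Of 17 HSP90 cochaperones tested, 2 rose and 12 fell (6 higher and 3 lower relative to the median; median -0.46). Stip1, also called HOP, which hands clients from HSP70 to HSP90, was at 32.8 and 35.3 FPKM in control, 68.2 and 68.4 in LPS, and 66.4 and 64.3 in Glul_LPS. It rose by 0.98 (SE 0.05, adjusted p 9.49e-06), with the LPS libraries well above control. Ptges3, or p23, was the other that rose, by 0.19 (SE 0.07, adjusted p 0.0353), a call lost without control C (0.12), LPS B (0.17) or LPS C (0.20), where the adjusted p was 0.0759 to 0.187. Ppp5c fell by 0.84, Tomm34 by 0.77 and Fkbp4 by 0.76, the last with an adjusted p of 0.0527 relative to the median. In the cytosolic chaperonin CCT and its partner prefoldin, 1 of 14 rose and 7 fell, and the median change was -0.18. Relative to the median 10 of these genes were higher and 0 lower, beside 34.6% and 32.2% of all genes tested. The largest falls there were Pfdn6 (-0.50), Pfdn5 (-0.48), Cct2 (-0.36) and Pfdn1 (-0.32), and relative to the median these turned to 0.02, 0.04, 0.16 and 0.19, of which Cct2 passed as higher (adjusted p 0.0174). Cct8 rose by 0.15 (SE 0.05, adjusted p 0.0254), a call lost without either control library or either LPS library (adjusted p 0.0688 to 0.0961).

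Among 14 ER folding genes tested, 1 rose and 10 fell (8 higher and 2 lower relative to the median; median -0.32). Ero1lb, an ER oxidase, was at 10.98 and 11.04 FPKM in control, 4.25 and 4.32 in LPS, and 4.03 and 3.37 in Glul_LPS and fell by 1.19 (SE 0.08, adjusted p 2.39e-05). Pdia4, a disulfide isomerase, fell by 0.90, Creld2 by 0.65 and Sdf2l1, a known partner of ERdj3, by 0.56. Relative to the median Pdia4 was still lower (-0.38), and Creld2 and Sdf2l1 did not pass. Ero1l, the paralogue of Ero1lb, rose by 0.36 (SE 0.06, adjusted p 0.0018). Of 11 mitochondrial folding and protease genes, 0 rose and 8 fell (4 higher and 4 lower relative to the median; median -0.57). Afg3l2, a protease of the inner membrane, was at 19.7 and 22.1 FPKM in control, 7.43 and 8.19 in LPS, and 9.31 and 8.29 in Glul_LPS and fell by 1.31 (SE 0.09, adjusted p 2.23e-05). Clpp and Lonp1, proteases of the matrix, fell by 1.04 and 0.91, and Grpel2, an exchange factor of Hspa9, by 0.75, all 4 also relative to the median.

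The comparison of Glul_LPS with LPS asks whether the Glul vector altered the state reached with LPS. It used the same LPS libraries as the comparison with control. By limma, 0 of 56 members rose and 0 fell, beside 0.547% higher and 0.556% lower of all 10962 genes tested (60 and 61 genes). Limma voom on recovered fragments called 1 of 49 members higher, Dnajc1, and 0 lower, beside 279 and 269 of all 9579 genes in that fit. At an unadjusted p under 0.05 there were 5 members and 1915 of all genes tested (17.5%). Changes lay between -0.19 and 0.33 on the log2 scale, and 53 of the 56 members were within 0.2 of no change. Of all 56, 29 lay above 0 and 27 below. The 95% intervals of 55 members stayed within 1.5-fold in either direction on the scale of FPKM + 1, and Hspb11 was the exception (0.660 to 1.21). For members near or below 1 FPKM the added 1 narrows these intervals, which then say little about the ratio of FPKM itself.

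Dnajc1, or ERdj1, an ER membrane protein that binds BiP and ribosomes, came nearest to the threshold. It was at 4.04 and 4.13 FPKM in control, 3.45 and 3.38 in LPS, and 4.35 and 4.77 in Glul_LPS, so both Glul_LPS libraries were above both LPS libraries and, by a smaller margin, above control. Its change was 0.33 by limma (SE 0.07, adjusted p 0.0847) and 0.41 by voom (adjusted p 0.00319). The same gene fell by 0.20 in LPS with control (SE 0.07, adjusted p 0.0279), was higher by 0.31 relative to the median (adjusted p 0.00771), and did not pass when any 1 of the control or LPS libraries was left out (adjusted p 0.066 to 0.119). The inducible HSP70 genes had the next largest changes, 0.30 for Hspa1a (SE 0.11, adjusted p 0.237) and 0.23 for Hspa1b (SE 0.08, adjusted p 0.211). For each of them the Glul_LPS libraries, given above, were higher than the other 4. Dnajc5, at the levels given above, had a change of -0.14 (SE 0.05, adjusted p 0.214). Dnajc2 was at 5.798 and 6.103 FPKM in control, 5.35 and 5.15 in LPS, and 4.802 and 4.23 in Glul_LPS, with a change of -0.18 (SE 0.07, adjusted p 0.285). In both, the Glul_LPS libraries were below the LPS libraries. These 5 were the members with an unadjusted p under 0.05.

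For members named for their changes after LPS, the change in Glul_LPS with LPS was -0.11 for Dnaja2 (95% interval of the ratio 0.828 to 1.03), -0.06 for Dnaja1 (0.884 to 1.05), -0.09 for Hsp90aa1 (0.873 to 1.01) and -0.00248 for Hspa5 (0.905 to 1.10). For Hspa1b, which had risen after LPS, it was 0.23 (1.03 to 1.34). Among those that had fallen it was -0.04 for Hsph1 (0.829 to 1.14), -0.19 for Dnajc9 (0.714 to 1.08), 0.19 for Dnajb14 (0.996 to 1.31) and 0.17 for Dnajc18 (0.980 to 1.296). For Dnajc28, near 0.1 FPKM in both groups, the added 1 holds that ratio near 1. Its mean FPKM in Glul_LPS was 1.54 times that in LPS, at 5 to 9 fragments a library, and this ratio was not tested. None passed. These intervals are ratios of FPKM + 1. In the 5 other lists, 0 genes rose and 0 fell by limma, and voom called Serp1 higher and Calr lower (0.23 and -0.21, adjusted p 0.0252 and 0.0424).

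**Figure D4:**
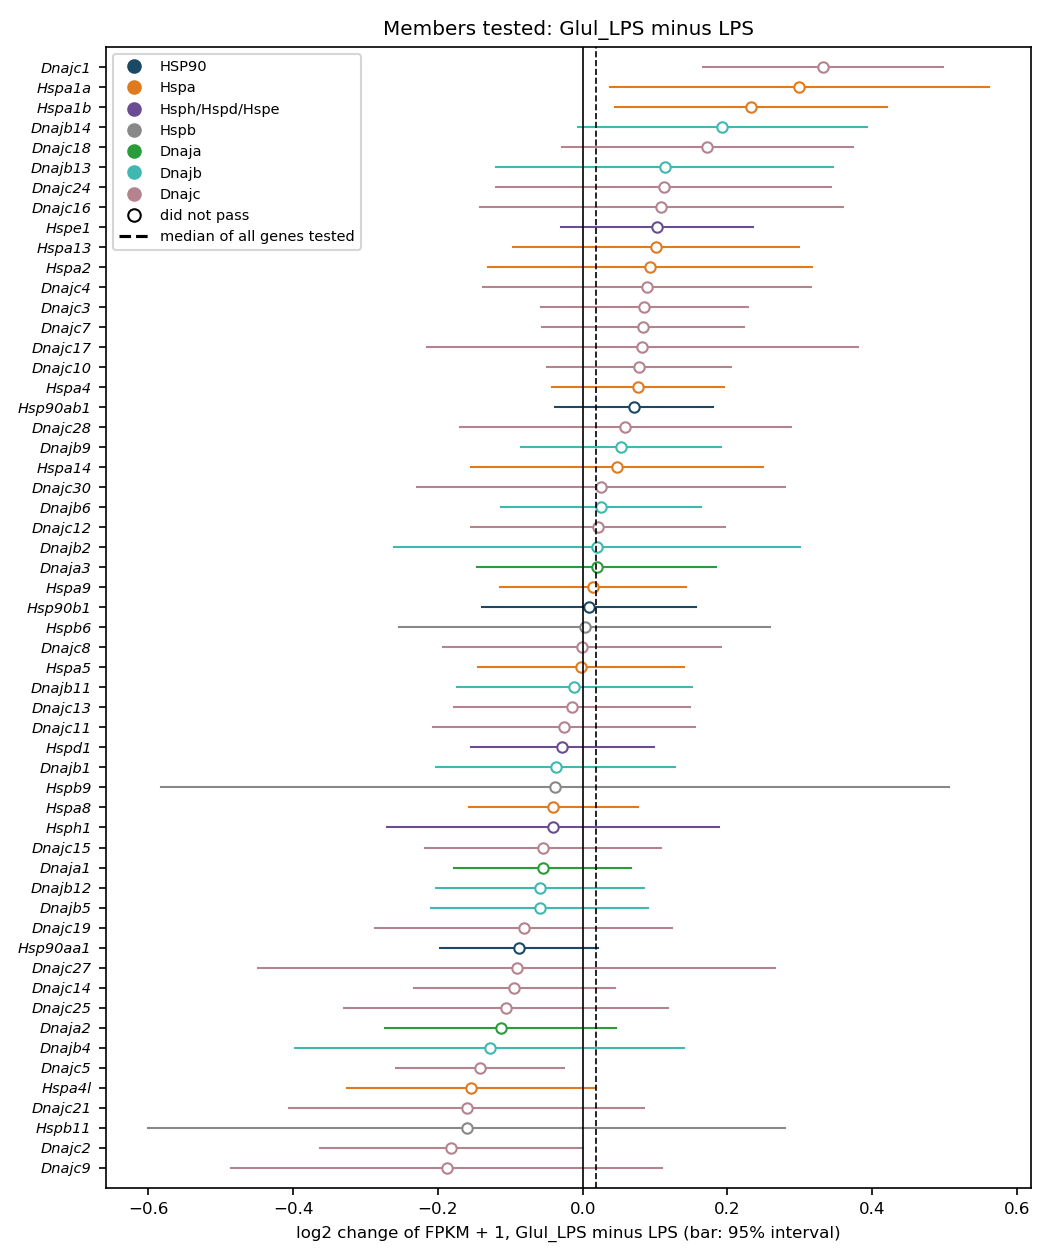
Log2 change of FPKM + 1, Glul_LPS minus LPS, for the 56 tested members, with 95% intervals, coloured by gene family. All points are open, as none passed the threshold, and they lie between -0.19 (Dnajc9) and 0.33 (Dnajc1).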

How the data were processed

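RNA-seq of 6 libraries of mouse macrophages was analysed from 1 table in which the authors deposited FPKM values for 24752 genes. The tools named, per the submitters' processing notes, are CASAVA, HISAT2 2.1.0, HTSeq 0.6.0 and DESeq2, with the build GRCm38. Not given in the sources used here are their order, the annotation and whether counting used strand, so fragments of overlapping genes cannot be told apart. 6 further columns of per-sample values matched no sample and were not used.

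The scale was log2(FPKM + 1), as deposited and not rescaled, which understates the fold of genes near 1 FPKM. The 10962 genes that reached 1 FPKM in 2 or more libraries were tested in 1 limma fit of all 3 groups (limma 3.58.1, R 4.3.3; moderated two-sided test with a mean-variance trend, 6.27 degrees of freedom, Benjamini-Hochberg adjustment over all genes tested, threshold 0.05). "Rose" and "fell" are used for calls past it. Relative to the median means that each library was centred on the median log2 value of the tested genes, which moved the median change of LPS with control from -0.50 to 0.02. It was -0.56 after rescaling to TPM and -0.13 after quantile normalization.

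Exon lengths came from GENCODE M21, where 24703 of the gene IDs were found. FPKM times length gave whole fragments, within 0.01, for 97.05% to 97.5% of expressed genes with 1 exon, and for 22655 genes in all 6 libraries, among them 58 of 66 members. Limma voom was run on these (9579 genes). Tested members with whole fragments had 9 to 40138 fragments in a library. Stretches of 50 bases were searched in all other annotated transcripts, and 12 members shared at least 20% of theirs. Promoters were those of RefSeq, and protein sequences were not used here.

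Members and lists were chosen with earlier results of these data known. Members named are the main heat shock proteins whatever their result, the 10 largest rises and falls past the threshold after LPS, and those past it in Glul_LPS with LPS, with up to 4 genes of each other list by size of change. The other members were described for completeness. Dnaja3, Dnajb11, Dnajc1, Dnajc3, Hsf1, Bag1, Ptges3, Cct8, Ero1l, Serp1 and Calr were singled out after their values were seen. Alternatives were no filter on low values, a mean of at least 5 FPKM, pseudocounts of 0.1 and 0.5, TPM, quantile normalization, median centring, a fit of the compared groups alone, the replicate letter as a block, no trend, voom, and leaving out each library.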

Additional observations from a re-analysis of the deposited data

How the results depend on the processing

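The 7 rises among members in LPS with control became 17 under median centring and 12 under quantile normalization. The 42 falls became 14 and 25 under these, and 21 with a filter at a mean of 5 FPKM, which tests fewer genes. For the whole table, 1879 rises became 3788 under median centring and 3044 under quantile normalization, and 7459 falls became 3530 and 4631. Leaving out a library gave 6 to 7 rises and 38 to 43 falls in LPS with control, and 0 of either in Glul_LPS with LPS, where voom alone gave 1 rise. In the other chaperone lists, 5 rises and 50 falls after LPS became 33 and 12 under median centring, and the rises became 14 under quantile normalization and 3 to 5 without a library. Voom gave 1 rise and 1 fall there in Glul_LPS with LPS. Over all genes tested, the 60 rises and 61 falls of that comparison became 279 and 269 with voom, 5 and 4 with no filter, and 1 and 0 without LPS library B.

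Turns below are for members named by rule and for Dnaja3, Dnajb11, Dnajc1 and Dnajc3, singled out after their values were seen. In LPS with control, median centring turned the direction of Dnajb11 (0.19), Dnajc1 (0.31), Hsp90b1 (0.18), Hspa1a (0.40), Hspa9 (0.057), Hspd1 (0.064) and Hspe1 (0.080). Quantile normalization turned that of Dnajc1 (0.37), Hspa1a (0.43) and Hspa8 (-0.12). Without a library, Hspa1a went from -0.26 to 0.024 (adjusted p 0.0473 without control C). In Glul_LPS with LPS, where none passed, signs of such members turned for Dnaja3 (-0.011 centred), Dnaja3 (-0.00483 quantile), Dnajb6 (-0.00455 centred), Hsp90b1 (-0.021 centred), Hsp90b1 (-0.00178 TPM), Hspa5 (0.027 quantile) and Hspa9 (-0.016 centred). Leaving out a library there gave -0.00456 to 0.043 for Dnaja3, -0.11 to 0.036 for Dnajb1, -0.084 to 0.061 for Dnajb11, -0.038 to 0.088 for Dnajb6, -0.10 to 0.070 for Dnajc13, -0.049 to 0.067 for Hsp90b1, -0.00803 to 0.19 for Hspa2, -0.023 to 0.018 for Hspa5, -0.034 to 0.062 for Hspa9 and -0.12 to 0.041 for Hsph1. The cause was not tested. Turns of other members are not listed here. Of 1024 values of 62 named changes, 978 kept direction and side of the threshold. Part of this was fixed in advance, as leaving out a library of a group outside a comparison cannot move its log2 change. A change that passed in neither fit also counts as kept when its sign held.

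With the replicate block, 7 members rose and 42 fell after LPS and 0 did in Glul_LPS with LPS. The letters are not known to pair libraries: the differences of B and C correlated between groups at -0.0215, -0.000429 and -0.0474. With 2 libraries a group, small changes of low members were not detectable.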
